A study of Mus musculus with 8 samples.

Results

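The genes described here are the 91 histone genes among the 45583 gene symbols of the count table, chosen by their symbols alone (names starting *Hist1h* to *Hist4h*, *H2af*, *H3f3* or *H1f*). Of these, 70 were clustered genes by symbol. On chromosome 13 lay 56 *Hist1* genes, of which the pseudogene *Hist1h2al* stands away from the cluster. There were 10 *Hist2* genes on chromosome 3, 3 *Hist3* genes on chromosome 11 and 1 *Hist4* gene on chromosome 6. Of the 70, 67 were annotated as protein coding. The other 21 symbols were variant genes, counting 5 pseudogenes and an antisense transcript of *H3f3a*. Ovarian RNA was taken from 3-week-old female C57/Bl6 mice, 4 labelled WT (animals 1118, 1119, 1120 and 1121) and 4 labelled GOAT KO (1139, 1140, 1141 and 1146), which per the methods were littermates from crosses of heterozygous parents, with 1 ovary and 1 library per animal. GOAT, ghrelin-O-acyltransferase, is the product of *Mboat4* and attaches the acyl group to the gut peptide ghrelin. The knockout is in the whole animal, and the ovary mixes oocytes, granulosa cells, theca and other cells, so that fewer cells of a type and less RNA per cell cannot be told apart here.

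Histones are the proteins that DNA is wrapped around. Clustered histone genes supply new histones while DNA is copied, and their mRNAs typically end in a short stem-loop instead of a poly(A) tail. Variant genes such as *H3f3a* and *H3f3b*, which both encode the replacement histone H3.3, have introns and polyadenylated mRNAs and are used at any time of the cell cycle, and *H1foo* encodes the linker histone of oocytes. How RNA was selected for the libraries is not given in the sources used here, beyond total RNA as input.

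The few reads on the targeted gene went against the labels. *Mboat4* (chromosome 8, 34115030 to 34125182, plus strand, GRCm38) was read 1 to 3 times per library labelled WT and 5 to 8 times per library labelled GOAT KO, without overlap (p = 0.0286 by two-sided exact permutation, a value that 4 against 4 cannot go below). Where on the gene these reads fell is not given by the count table. They were too few to pass the filter on low counts described below, so the gene was not fitted. By PCR, the paper reports that *Mboat4* did not amplify from juvenile GOAT KO ovaries. Every direction below rests on the labels. The libraries held 16147216 to 19481798 counts on genes. GOAT KO 1139 and WT 1120 lay farthest from the rest of their groups (mean log2 distance of 1.62 and 1.397 against 1.19 to 1.33), and results are given with all 8 libraries and with the 6 that remain without these. Adipose markers summed to 451 CPM (counts for each 1000000 of a library, scaled by edgeR's TMM method) in GOAT KO 1139.

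The 3′ ends of the genes are shown first, because they set most clustered genes apart from the variants. The annotated transcripts were searched, on the transcribed strand only, for the 16-base stem-loop motif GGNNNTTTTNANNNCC. It was found in 44 of the 70 clustered genes, in 1 of the variants (*H2afx*), and in 1.64% of 21877 protein-coding genes of GENCODE M21. Several clustered genes without a match have short annotated transcripts, such as *Hist1h4k* with 312 bases and *Hist1h2bl* with 381. Bases past an annotated end could not be searched, so a missing match is not a missing stem-loop. Below, with the motif in capitals, are the windows of 3 clustered genes that could be tested, of 2 that drew few reads beside a well-read neighbour, and of *H2afx*.
Hist1h1c: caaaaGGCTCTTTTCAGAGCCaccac
Hist3h2a: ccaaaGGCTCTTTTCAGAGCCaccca
Hist1h4i: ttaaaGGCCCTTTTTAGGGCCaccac
Hist1h2ac: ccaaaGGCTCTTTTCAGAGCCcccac
Hist2h2ac: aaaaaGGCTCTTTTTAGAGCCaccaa
H2afx: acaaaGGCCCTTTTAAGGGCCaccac
The fixed letters are the same in all 6 because they were searched for. *Hist1h1c*, *Hist3h2a* and *Hist1h2ac* have the same 16 bases, and the other motifs differ in free letters. No match was found in the annotated transcripts of *Hist1h2bc* and *Hist2h2be*, a pair of clustered H2B genes described below.

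The promoters of the H3.3 genes are shown because both genes encode the same protein and differ in level. Windows of 250 bases before and 50 bases after the start (RefSeq, GRCm38.p6) were matched for 77 of the 91 genes and searched on both strands for CCAAT, for the TATA box letters TATAAA and for the octamer ATTTGCAT. Matches are in capitals below, where CCAAT reads ATTGG and the octamer ATGCAAAT if they lie on the other strand, and no matches overlap in these windows.
H3f3a, chr1:180813556-180813855, minus strand: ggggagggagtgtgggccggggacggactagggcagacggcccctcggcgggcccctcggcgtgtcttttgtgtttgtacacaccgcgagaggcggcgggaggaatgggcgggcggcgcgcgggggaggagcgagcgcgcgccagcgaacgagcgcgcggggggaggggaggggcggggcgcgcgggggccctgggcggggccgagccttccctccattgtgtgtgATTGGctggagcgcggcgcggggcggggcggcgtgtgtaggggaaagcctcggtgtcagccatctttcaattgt
H3f3b, chr11:116024455-116024754, minus strand: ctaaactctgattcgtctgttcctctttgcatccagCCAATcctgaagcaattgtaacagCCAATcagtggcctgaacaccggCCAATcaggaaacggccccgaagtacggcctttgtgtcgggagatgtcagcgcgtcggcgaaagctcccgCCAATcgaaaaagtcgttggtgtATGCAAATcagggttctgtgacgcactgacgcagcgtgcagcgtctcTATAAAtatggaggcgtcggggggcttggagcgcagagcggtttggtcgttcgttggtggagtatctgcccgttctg
*H3f3b* holds CCAAT 4 times and both other motifs once, while *H3f3a* holds 1 CCAAT on the other strand. Of 27025 promoters of this length, 37.9% hold CCAAT, 14.2% TATAAA and 1.75% ATTTGCAT. Every matched promoter of clustered H1, H2A, H2B and H3 genes holds CCAAT (6 of 6, 18 of 18, 16 of 16 and 10 of 10), against 3 of 12 for H4. ATTTGCAT was found in 7 of 18 clustered H2A and 6 of 16 clustered H2B promoters and in none of the clustered H1, H3 or H4. These are matches of letters and say nothing of use in these ovaries.

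Clustered genes drew very few reads. All 70 together held 7889 reads over the 8 libraries, 0.00561% of the counts, against 178748 reads or 0.127% for the 21 variant symbols. For each 100 reads on variants a library held between 4.05 and 4.68 on clustered genes. There were 11 clustered genes at 0 in all 8 libraries and 53 with 1 to 99 reads, and only 6 reached 100. A count of 0 over all 8 libraries allows up to 0.0213 CPM (3 counts, counting error only). That limit holds only where reads can be assigned to the gene. Of the genes at 0, *Hist2h2aa1* and *Hist2h3c1* have no stretch of 50 bases that is absent from all other annotated genes.

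Reads were unevenly spread over the histone classes of the clusters. H2B held 46.8% of the clustered reads, H1 35.9%, H2A 10.2% and H4 5.76%, while the 12 clustered H3 genes together held 107 reads, 1.36%. In H1, H2A and H4 the reads dropped steeply after the first gene, and in H2B and H3 the leading pair was closer. In H1, *Hist1h1c* had 2711 reads and the next, *Hist1h1b*, 50. The leading H2A genes, *Hist3h2a* and *Hist1h2aa*, had 672 and 57. H2B was led by *Hist1h2bc* with 2007 and *Hist2h2be* with 1386 reads. H4 was led by *Hist1h4i* with 258 and *Hist2h4* with 43. For H3, the leaders *Hist1h3d* and *Hist2h3c2* had 24 and 20 reads over 8 libraries, and no clustered H3 gene could be tested, so that nearly all H3 reads came from the H3.3 genes.

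**Figure D1:**
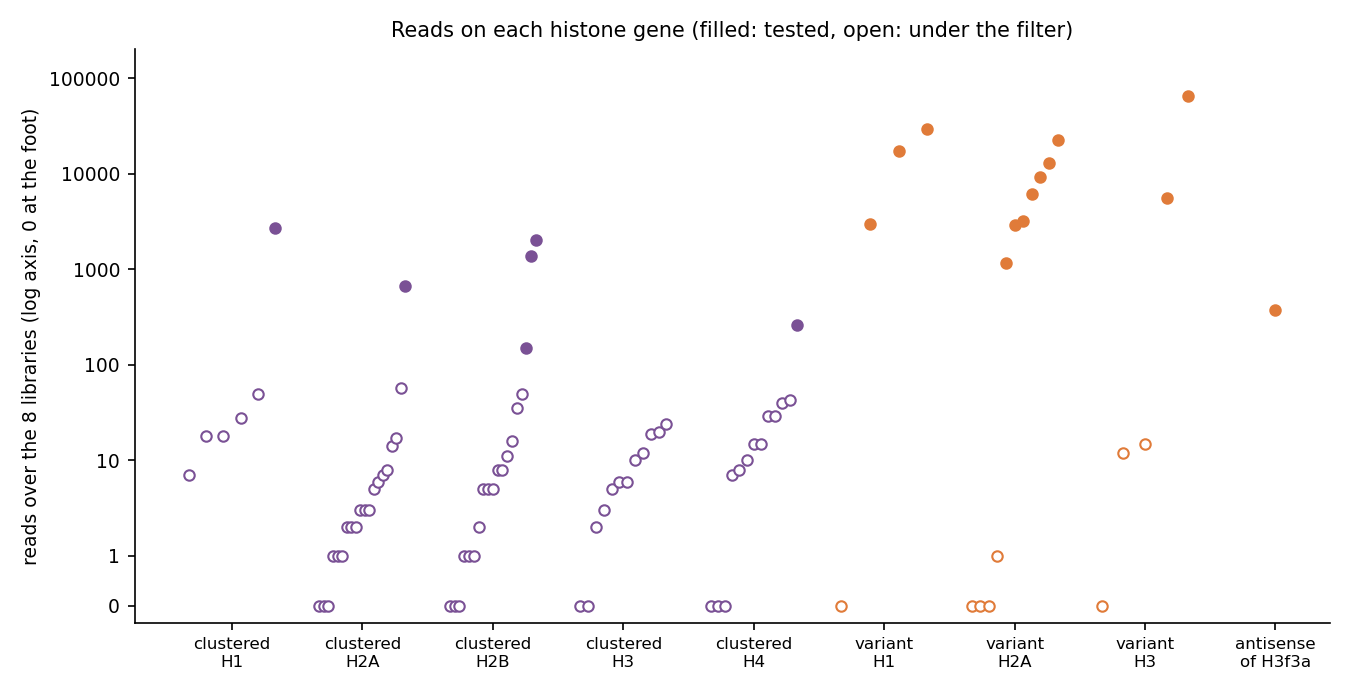
Reads summed over the 8 libraries for each of the 91 histone symbols (log axis, genes at 0 drawn at the foot), by class; filled points passed the filter on low counts and open points did not. The 6 filled clustered points stand apart from their classes, and 12 of the filled variant points lie above 1000 reads, with the antisense transcript of H3f3a at 371.

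The filter on low counts (at least 0.566 CPM in 4 libraries and 15 counts in all) left 19 histone genes, 6 clustered and 13 variant, and 72 were not tested, 16 of which had no read at all. The 6 clustered genes that passed, *Hist1h1c*, *Hist1h2bc*, *Hist1h2be*, *Hist2h2be*, *Hist3h2a* and *Hist1h4i*, held 91.1% of the clustered reads. In the annotation, all 6 either extend well past the stem-loop motif or hold no match of it. *Hist1h1c*, *Hist1h2be*, *Hist3h2a* and *Hist1h4i* have 840, 1861, 1643 and 330 annotated bases after the motif. It was not matched in the annotated mRNAs of *Hist1h2bc* and *Hist2h2be*. The converse did not hold, as 9 of the 12 clustered genes with a stem-loop and at least 500 bases after it had under 100 reads. *Hist1h2ac*, with 2010 bases after it, had 17 reads. *Hist1h4j*, with 385 bases after it, had 40 reads, and *Hist1h1b*, with no match, had 50. The 6 tested genes are thus not set apart by this trait.

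Many clustered genes have near-identical copies, and the authors' table holds reads assigned to 1 feature. Between 15.7 and 16.8% of mapped reads per library were not assigned to 1 feature, and how reads shared by copies were treated is not given in the sources used here. Of the 70 clustered genes, 34 have at least 50% of their 50-base stretches found in no other annotated gene, and 28 of these 34 had under 100 reads. Among the 13 clustered genes with at least 80% of such stretches, 10 had under 100 reads. The part of shared sequence in the low counts of the others was not tested.

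Clustered histone genes often stand head to head and share the stretch between their starts, and 15 such divergent pairs are annotated, nearly all of an H2A and an H2B gene. The exception is *Hist1h2bh*, which faces the H3 gene *Hist1h3f* at 659 bases. In 3 of them 1 gene was read far more than its partner. *Hist1h2bc* had 2007 reads and *Hist1h2ac*, 250 bases away, had 17. *Hist2h2be* had 1386 reads and *Hist2h2ac*, 238 bases away, had 2. *Hist3h2a* had 672 reads and the pseudogene *Hist3h2bb-ps*, 172 bases away, had 1. Of the 50-base stretches of *Hist3h2a*, 68.5% are found in no other gene, and 660 are shared with *Trim17*. In the other 12 pairs no gene reached 60 reads. *Hist1h2ac* and *Hist2h2ac* are the genes with few reads whose stem-loops are printed above.

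*Hist1h2bc* was also the only clustered gene with reads across an intron. The junction chr13:23684622-23692175 (plus strand) held 7 to 21 reads in each of the 8 libraries, 112 in all or 55.8 for each 1000 counts on the gene. No such reads were counted for the annotated introns of *Hist1h2be*, *Hist1h2bp*, *Hist1h2bq* or *Hist1h2br*, the other clustered genes with an annotated intron.

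Among the variants, levels per length (CPM per kilobase of annotated exon, mean of the 8 libraries) were highest for *H3f3b* at 157, with 145 to 166 across libraries. *H1foo* at 103 (94.2 to 118) and *H1f0*, the linker histone of resting cells, at 101 (94.1 to 111) followed, and their ranges overlap almost wholly. *H2afv*, which encodes an H2A.Z protein, had 55.7 (51.8 to 58.9) and *H2afx*, whose protein is phosphorylated at DNA breaks, had 47.5 (42.4 to 57.1), so that these neighbours also overlap. Then came the macroH2A genes, *H2afy* at 23.4 and *H2afy2* at 19.8, and the linker histone *H1fx* at 17.5, each overlapping the next. The annotated exons of *H2afy* amount to 6809 bases because transcripts with retained introns are included. Without those it has 2997 stretches of 50 bases, so its place in this order depends on the length used. *H2afz* at 12.8, *H3f3a* at 11.3 and *H2afj* at 11.3 lay at the level of the leading clustered genes, *Hist1h2bc* at 12.4 and *Hist1h1c* at 12.4, and the ranges of these 5 overlap. The lowest tested genes were the macroH2A pseudogene *H2afy3* at 7.38, *Hist2h2be* at 3.76, *Hist1h4i* at 2.52, *Hist3h2a* at 2.23, the antisense transcript *H3f3aos* at 0.870 and *Hist1h2be* at 0.241.

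Some variants were listed at 0 throughout. No read fell on the testis genes *H1fnt*, *H2afb1*, *H2afb2* and *H2afb3* or on the pseudogene *H3f3a-ps1* in any library. The remaining pseudogenes *H2af-ps*, *H3f3c* and *H3f3a-ps2* had 1, 12 and 15 reads.

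The comparison of the libraries labelled GOAT KO with those labelled WT asked, as far as the labels hold, whether histone genes differ between juvenile ovaries with and without GOAT. With all 8 libraries, 0 of the 19 tested histone genes were called (edgeR quasi-likelihood test, unadjusted p under 0.05 and absolute log2 fold change over 0.5), against 1.67% of all 16601 genes tested. With the lower fold limit of 0.3 it was also 0, against 2.85%. At an unadjusted p under 0.05 alone the count was also 0, against 4.62% of all genes, and DESeq2 called 0. No histone gene passed an adjusted p under 0.05, which 0.0241% of all genes did. The CPM of the groups overlapped for all 19, while they did not overlap for 2.92% of all genes. The median log2 fold change was -0.05 over the 19, -0.05 over the 6 clustered and -0.05 over the 13 variant genes, and -0.00035 over all genes tested.

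With the 6 libraries, without WT 1120 and GOAT KO 1139, 1 histone gene was called, *H3f3a*, against 2.39% of 16641 genes (1.08% lower, as *H3f3a* was, and 4.77% at the fold limit of 0.3, where it was also the only one), and *H1fx* was the only other one with an unadjusted p under 0.05, against 9.46%. None had an adjusted p under 0.05 (0.12% of all genes). A share of 1 in 19 rests on a single gene and is not told apart from these backgrounds.

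**Figure D2:**
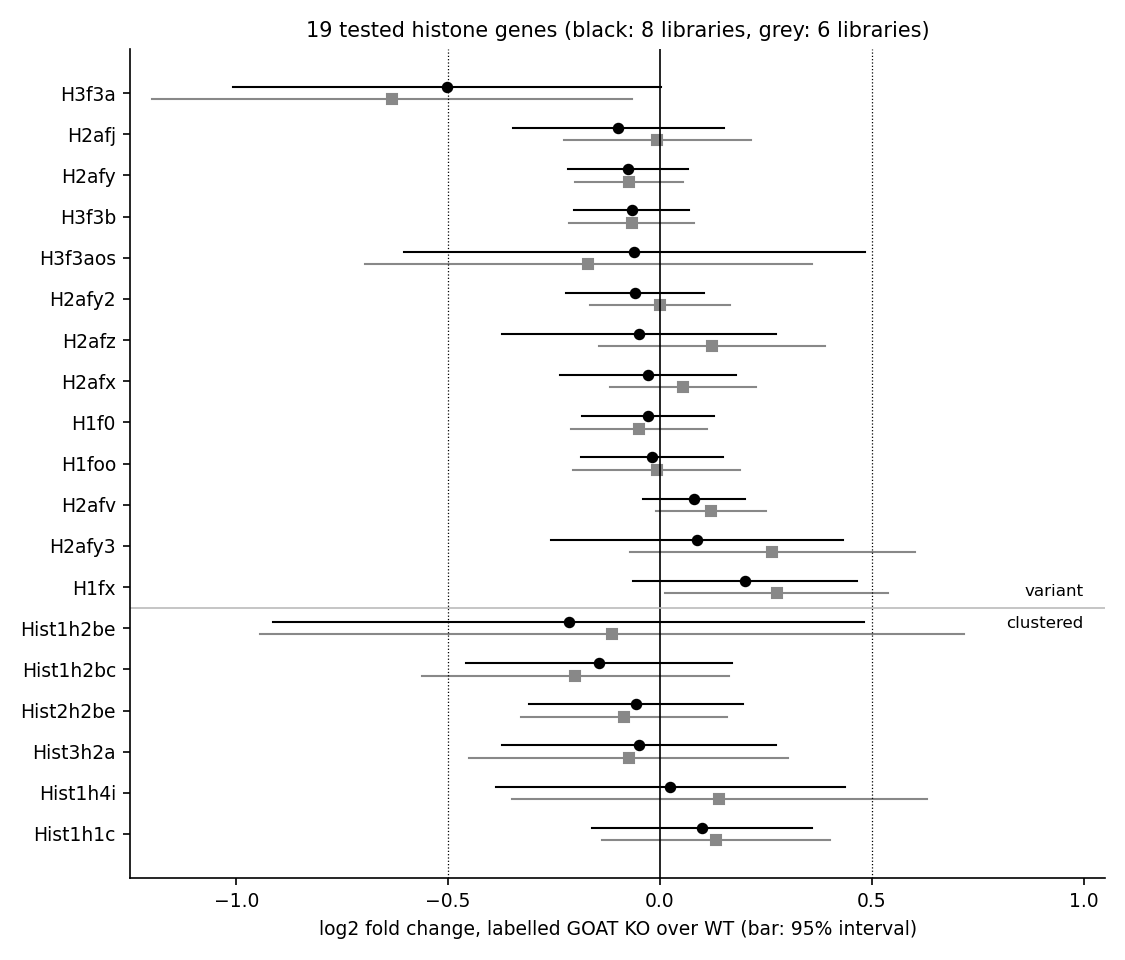
Log2 fold change of the libraries labelled GOAT KO over WT for the 19 tested histone genes, with 95% intervals from edgeR; black circles are all 8 libraries, grey squares the 6 without WT 1120 and GOAT KO 1139, and dotted lines mark 0.5 in each direction. H3f3a is the only gene whose estimate lies past a dotted line, and with all 8 libraries every interval reaches across 0.

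*H3f3a* (chr1:180800832-180813943, minus strand) varied most between libraries of the 19 tested histone genes, by 3.43 times from lowest to highest. The libraries labelled WT, from animal 1118 to 1121, had 67.3, 36.6, 42.2 and 39.9 CPM. Those labelled GOAT KO, 1139, 1140, 1141 and 1146, had 38.3, 37.6, 19.6 and 35.8 CPM. One library labelled WT stood high and one labelled GOAT KO stood low, and the other 6 lay between 35.8 and 42.2. The group means were 46.5 ± 14.1 and 32.8 ± 8.86 CPM (SD, n = 4 each), with a log2 fold change of -0.50 (SE 0.23, 95% interval -1.01 to 0.0032, unadjusted p = 0.0512, adjusted p = 0.983, edgeR). The groups overlap, and permuting the libraries gave p = 0.0857 (two-sided, exact). With the 6 libraries the log2 fold change was -0.63 (SE 0.26, unadjusted p = 0.0318, adjusted p = 0.506, edgeR), and without WT 1118 it was -0.27 (unadjusted p = 0.202), without GOAT KO 1141 -0.32 (unadjusted p = 0.122). Leaving out WT 1119, WT 1120, WT 1121, GOAT KO 1139 or GOAT KO 1140 instead gave an unadjusted p of 0.0329 to 0.05 and 1 gene called, *H3f3a*. Without GOAT KO 1146 the log2 fold change was -0.55 (unadjusted p = 0.0629, edgeR) and no histone gene was called.

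The sister gene *H3f3b* (chr11:116021912-116027962, minus strand) did not share these extremes. It had 492, 449, 493 and 476 CPM in the libraries labelled WT and 470, 487, 430 and 436 in those labelled GOAT KO, a range of 1.146 times, with a log2 fold change of -0.067 (SE 0.062, adjusted p = 0.983, edgeR). Reads on *H3f3a* were 12.0, 7.54, 7.87 and 7.73% of those on both H3.3 genes in the libraries labelled WT, and 7.54, 7.17, 4.36 and 7.59% in those labelled GOAT KO. The shares were 8.80 ± 2.17% and 6.66 ± 1.55% (SD, n = 4, two-sided exact permutation test, p = 0.0571), and again WT 1118 and GOAT KO 1141 alone stood off, while the other 6 lay within 7.17 to 7.87%. Most H3.3 reads fell on *H3f3b*, and the summed reads of the variant H3 symbols were 485 to 559 CPM in the libraries labelled WT and 450 to 525 in those labelled GOAT KO.

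**Figure D3:**
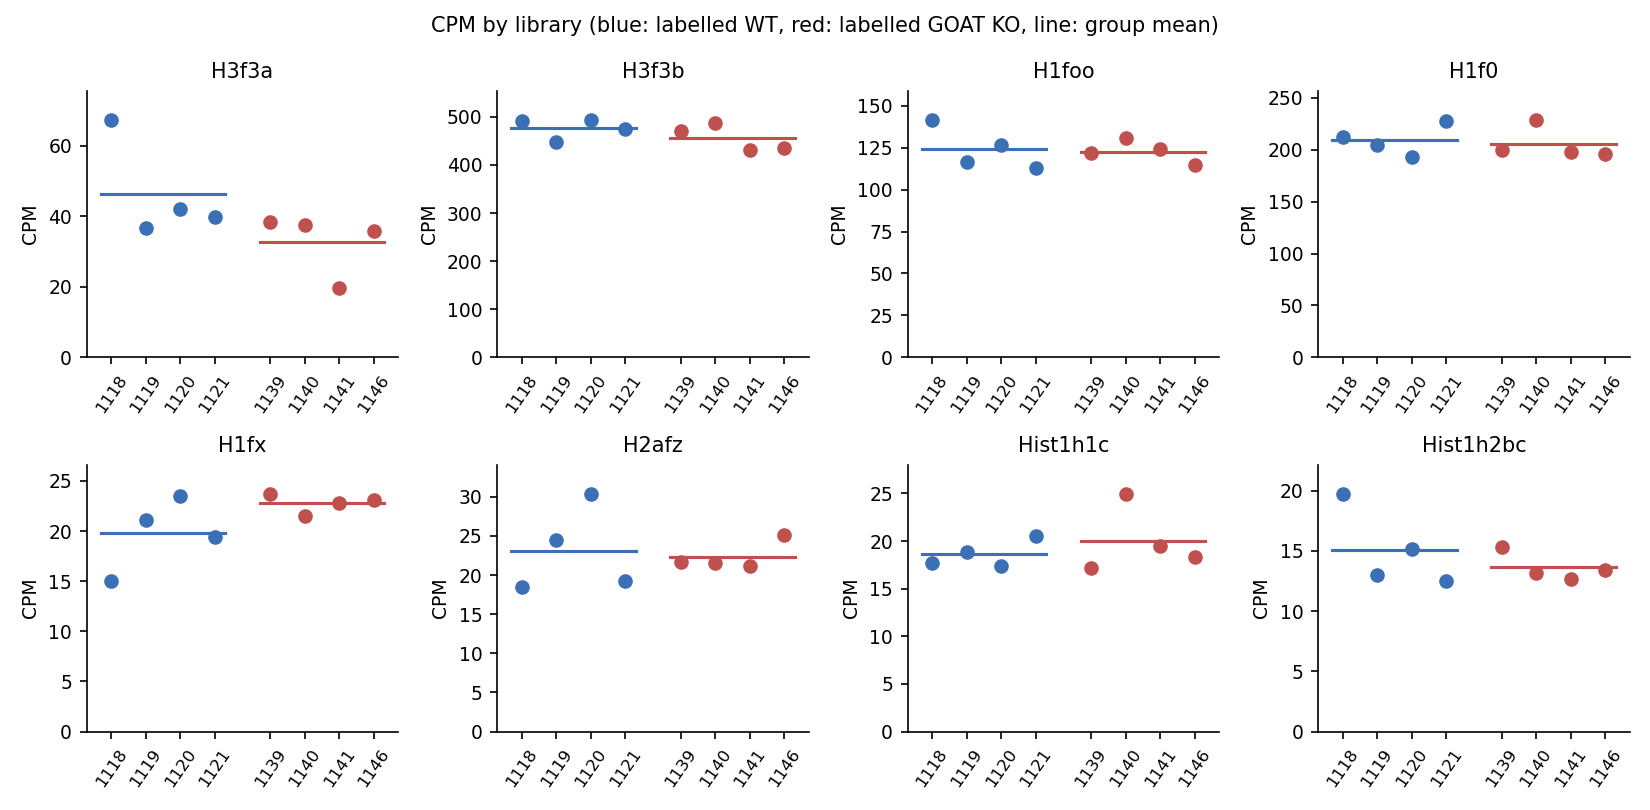
CPM of 8 histone genes in each library, blue for the libraries labelled WT and red for those labelled GOAT KO, with the group mean as a line and each axis starting at 0. The single high and single low library of H3f3a are WT 1118 at 67.3 and GOAT KO 1141 at 19.6, and neither stands off for H3f3b.

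Junction reads gave no second measure of *H3f3a*. Across its 9 annotated introns there was 1 read in all 8 libraries, in GOAT KO 1146, against 5505 counts on the gene. *H3f3b*, with 65534 counts and 5 annotated introns, had none, and *H2afz*, with 3207 counts and 8 introns, had 1. *H2afj*, with 2918 counts and 1 intron, also had 1. By contrast *H1foo* had 4326 junction reads (249 for each 1000 counts), *H2afy* 4849 (216), *H2afv* 2160 (169) and *H2afy2* 533 (87.8). Of the 50-base stretches across the introns with at least 8 bases on each side, 22.2% in *H3f3a*, 60% in *H3f3b* and 66.8% in *H2afz* matched another gene's transcript within 2 mismatches, as against none in *H1foo*, *H2afv* and *H2afj*, 0.286% in *H2afy* and 63.9% in *H2afy2*. The part of such copies in the missing junction reads was not tested. Over the whole transcripts, 70.8% of the 50-base stretches of *H3f3a* occur in no other gene and the rest are shared with 42 genes. The part of this sharing in its counts was not tested. *H3f3aos* overlaps the first exon of *H3f3a* on the other strand, and without the use of strand their reads cannot be told apart there.

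The oocyte linker *H1foo* (chr6:115944938-115950236, plus strand) was even between the groups. It had 142, 117, 126 and 113 CPM in the libraries labelled WT and 122, 131, 124 and 115 in those labelled GOAT KO, means of 124 ± 12.7 and 123 ± 6.67 (SD, n = 4). The log2 fold change was -0.019 (SE 0.076, 95% interval -0.19 to 0.15, adjusted p = 0.989, edgeR), so that these data leave room for a difference of up to that size. Its reads are not shared, as every 50-base stretch of its transcripts is its own. Of all H1 reads it held 29.6 to 36.6%. The 16 other oocyte markers tested summed to 1660 to 1985 CPM in the libraries labelled WT and 1735 to 2061 in those labelled GOAT KO. None of them was called in either set of libraries, but 15 had a log2 fold change above 0 with 8 libraries (median over the 16 of 0.13, over all genes -0.00035) and 14 with the 6 (medians 0.12 and 0.0010). An unadjusted p under 0.05 (edgeR) was reached by 3 with 8 libraries, *Nlrp5*, *Figla* and *Padi6* (4.62% of all genes), and by 2 with the 6, *Ooep* and *Padi6* (9.46% of all genes). The part of these markers in the *H1foo* values was not tested.

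The other linker histones also overlapped between the groups. *H1f0* had 193 to 228 CPM in the libraries labelled WT and 196 to 229 in those labelled GOAT KO, and *Hist1h1c*, the H1.2 gene of the cluster, 17.4 to 20.5 and 17.2 to 24.9. *H1fx* (chr6:87980421-87981637, minus strand) had 15.04, 21.1, 23.5 and 19.4 CPM in the libraries labelled WT, of which WT 1118 was the lowest, and lay between 21.5 and 23.7 CPM in all 4 labelled GOAT KO. The log2 fold change of *H1fx* was 0.20 (SE 0.12, unadjusted p = 0.122, adjusted p = 0.983, edgeR) with all 8 libraries and 0.28 (SE 0.12, unadjusted p = 0.0419, adjusted p = 0.523, edgeR) with the 6. Without WT 1118 it was 0.092 (unadjusted p = 0.295).

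No H2A variant was called. *H2afv* had a log2 fold change of 0.08 (88.5 ± 3.91 CPM in WT, 93.5 ± 3.00 in GOAT KO libraries), *H2afx* -0.029 (66.3 ± 9.01 and 65.0 ± 4.49), *H2afj* -0.099 (21.4 ± 3.18 and 20.0 ± 1.94) and *H2afz* -0.049 (23.1 ± 5.50 and 22.4 ± 1.86, SD, n = 4). *H2afx*, *H2afj* and *H2afz* were each highest in WT 1120, at 79.0, 26.2 and 30.3 CPM, and the log2 fold changes of *H2afx* and *H2afz* were 0.05 and 0.12 without WT 1120 and GOAT KO 1139. Only 41.2% of the 50-base stretches of *H2afz* are its own, so that its level against *H2afv*, all of whose stretches are its own, is uncertain. The macroH2A genes *H2afy* and *H2afy2* had log2 fold changes of -0.076 and -0.059, and the pseudogene *H2afy3*, which shares 142 of these stretches with *H2afy2*, 0.09.

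The clustered genes that could be tested lay close to 0 as well. *Hist1h2bc* had 19.7, 12.99, 15.1 and 12.5 CPM in the libraries labelled WT and 15.3, 13.1, 12.7 and 13.4 in those labelled GOAT KO (log2 fold change -0.14, SE 0.14), and WT 1118 was again the highest. *Hist2h2be* had a log2 fold change of -0.057, *Hist3h2a* -0.05, *Hist1h4i* 0.02 and *Hist1h1c* 0.10. *Hist1h2be*, with 11 to 27 counts per library, had -0.22 (SE 0.32, adjusted p = 0.983, edgeR), with an interval of -0.91 to 0.48, and its annotated exons share 447 of their 50-base stretches with *Hist1h1e*. These are values of single genes with overlapping groups, and none passed the test.

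Summed over all 70 genes, clustered histones had 56.3 ± 2.85 CPM in the libraries labelled WT and 56.1 ± 3.76 in those labelled GOAT KO (SD, n = 4), a log2 ratio of -0.0066. The sums were 60.5, 54.6, 54.5 and 55.7 CPM against 54.98, 61.6, 54.5 and 53.2, and the groups overlap fully. The variants summed to 1295 ± 51.6 and 1249 ± 54.9 CPM, a log2 ratio of -0.052, with 1237 to 1345 against 1190 to 1315. The 64 clustered genes under the filter had in sum 74 to 97 counts in the libraries labelled WT and 80 to 97 in those labelled GOAT KO. The sums were not tested.

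**Figure D4:**
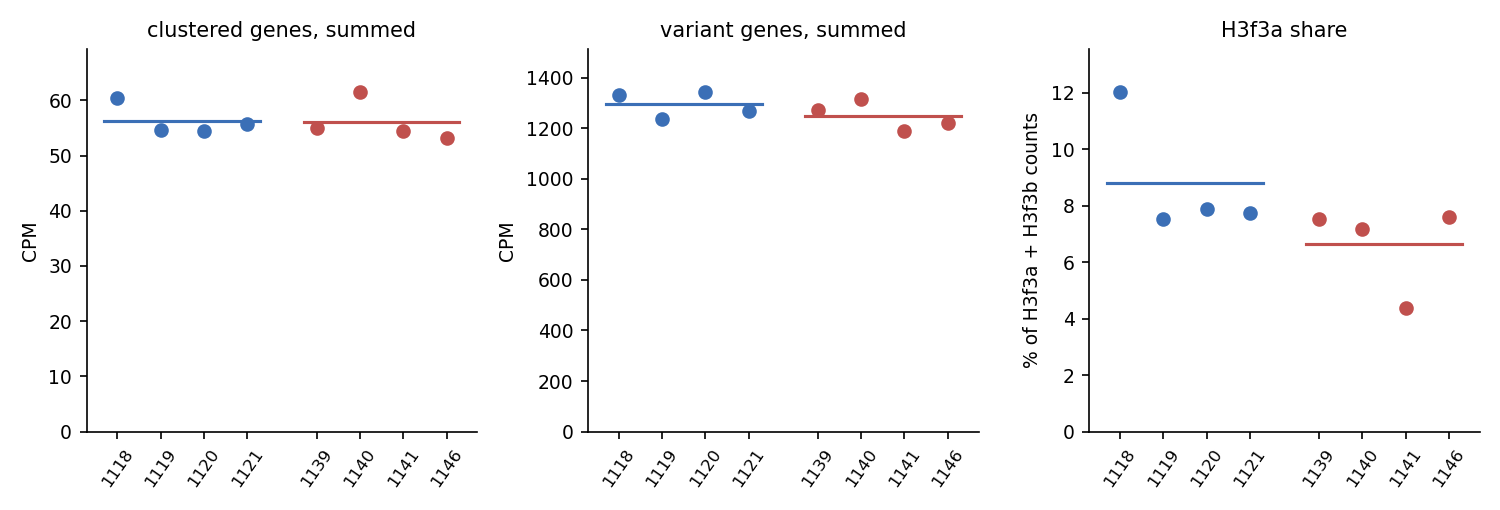
Summed CPM of the 70 clustered and of the 21 variant histone symbols, and reads on H3f3a as a percent of reads on H3f3a and H3f3b, in each library (blue for those labelled WT, red for those labelled GOAT KO, line for the group mean, axes from 0). The sums overlap between the groups, and the H3f3a share is set apart only in WT 1118 at 12.0% and GOAT KO 1141 at 4.36%.

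*H2afy* makes either of 2 macroH2A1 proteins by using 1 of 2 exclusive exons. They are shown because reads across their junctions tell the forms apart, which the gene counts do not. The 91-base exon belongs to macroH2A1.1, whose macro domain binds ADP-ribose, and the 100-base exon to macroH2A1.2, which does not bind it.
H2afy 91-base exon, chr13:56088252-56088342, minus strand: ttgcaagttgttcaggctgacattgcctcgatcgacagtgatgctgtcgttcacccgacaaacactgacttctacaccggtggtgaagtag
H2afy 100-base exon, chr13:56089758-56089857, minus strand: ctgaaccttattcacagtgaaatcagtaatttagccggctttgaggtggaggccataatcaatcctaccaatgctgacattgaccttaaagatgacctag
Reads joining each exon to the next shared exon were counted. The macroH2A1.2 exon was used more in every library, with 72 to 125 reads against 11 to 26 for the macroH2A1.1 exon. The macroH2A1.1 share was 13.2, 21.6, 12.0 and 16.8% in the libraries labelled WT and 17.8, 12.7, 24.3 and 16.5% in those labelled GOAT KO. The means were 15.9 ± 4.33% and 17.8 ± 4.82% (SD, n = 4), a difference of 1.90 percentage points (two-sided exact permutation test, p = 0.543, and 0.679 after Benjamini-Hochberg adjustment over 5 splice measures). The exact 95% interval of a single library is wide, for example 16.5 to 33.5% for GOAT KO 1141, and the difference between the groups was smaller than the SD within either.

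*H1foo* gave the clearest junction reads of the set. Its first intron, chr6:115945083-115947634, held 299 reads in WT 1118 and 141 to 194 in the other 7 libraries, and the third, chr6:115948914-115949685, held 77 in WT 1118 and 114 to 138 in the others. The ratio of the first to the third was 3.88 in WT 1118 and 1.07 to 1.55 elsewhere. The groups overlap (1.94 ± 1.31 in WT, 1.204 ± 0.037 in GOAT KO libraries, SD, n = 4, two-sided exact permutation test, p = 0.314, adjusted p = 0.679). The last intron has 2 donors 4 bases apart, and the second took 27.8 to 37.2% of its reads in the libraries labelled WT and 30.9 to 42.9% in those labelled GOAT KO (exact permutation p = 0.457, adjusted p = 0.679). For each 1000000 junction reads of a library, *H1foo* had 204 ± 42.4 and 178 ± 10.9 (exact permutation p = 0.257, adjusted p = 0.679).

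**Figure D5:**
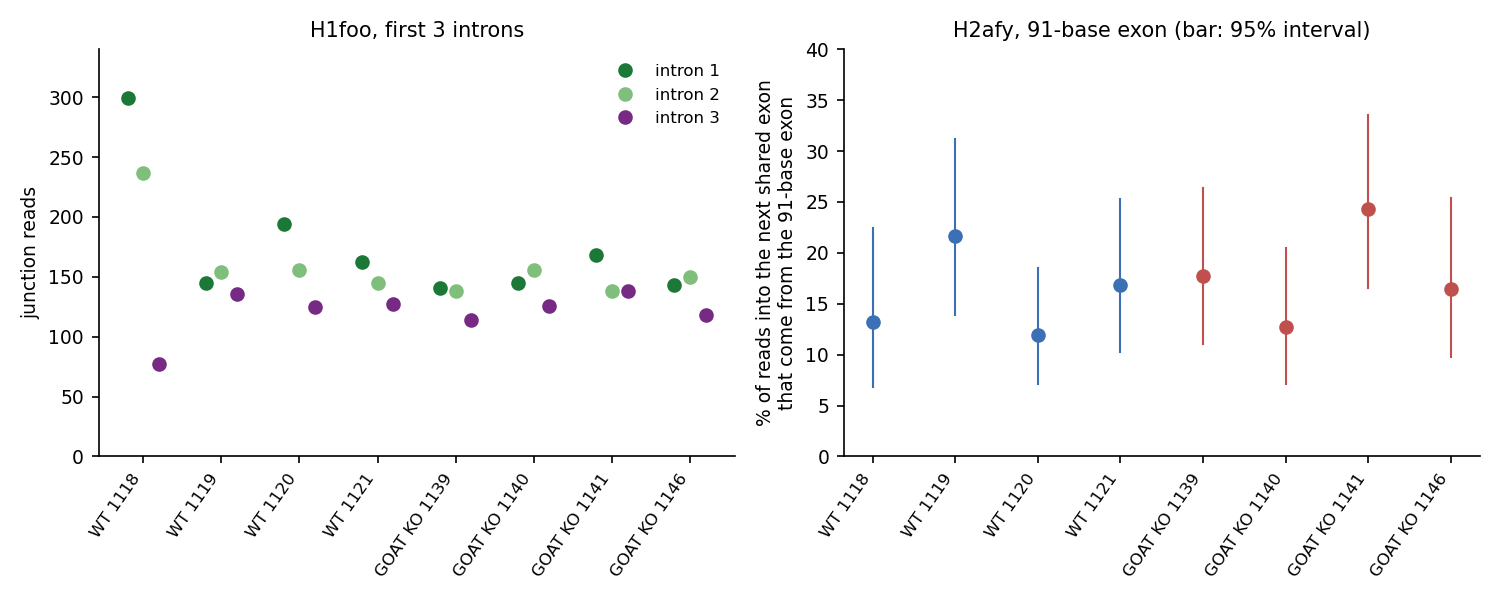
Left, reads across the first 3 introns of H1foo in each library. Right, percent of H2afy reads into the next shared exon that come from the 91-base exon, with exact 95% intervals, blue for libraries labelled WT and red for those labelled GOAT KO; in WT 1118 the H1foo introns lie at 299, 237 and 77 reads, farther apart than in any other library, and the H2afy intervals overlap between all libraries.

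Genes that handle histones and their mRNAs were measured far better than the clustered genes. All 15 listed genes of histone mRNA processing passed the filter and none was called with 8 or 6 libraries. *Slbp*, which binds the stem-loop, had 83.5 ± 3.198 CPM in WT and 87.4 ± 5.61 in GOAT KO libraries, and *Npat*, which activates clustered histone genes, 79.0 ± 6.72 and 72.3 ± 2.33 (SD, n = 4). At an unadjusted p under 0.05 the count was 0 of 15 with 8 libraries (4.62% of all genes) and 1 with 6 (9.46%), *Coil* of the Cajal body (log2 fold change 0.23, unadjusted p = 0.0217, adjusted p = 0.481, edgeR). The median log2 fold change of the list was -0.029.

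Of the 21 histone chaperones, which carry histones to DNA, none was called. *Hjurp*, known as the chaperone of the centromeric H3, was the most abundant in counts with 980 ± 82.5 and 1107 ± 55.9 CPM, and had the only unadjusted p under 0.05 with 8 libraries (log2 fold change 0.18, SE 0.073, unadjusted p = 0.0347, adjusted p = 0.983, edgeR). *Hira*, the H3.3 chaperone, had 0.12 with 8 libraries (unadjusted p = 0.452) and 0.29 with 6 (unadjusted p = 0.0294, adjusted p = 0.501, edgeR), and *Atrx*, which works with Daxx in placing H3.3, -0.10 (unadjusted p = 0.165) and -0.17 (unadjusted p = 0.00866, adjusted p = 0.422, edgeR). The counts at an unadjusted p under 0.05 were thus 1 of 21 with 8 libraries, against 4.62% of all genes, and 2 of 21 with 6, against 9.46%. The oocyte chaperone *Npm2* had 60.4 ± 12.3 and 58.6 ± 4.42 CPM.

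The 24 S-phase genes, which are active when clustered histones are made, all passed the filter and none was called. Their summed level was 1745 to 2114 CPM in the libraries labelled WT and 1850 to 2034 in those labelled GOAT KO, beside 53.2 to 61.6 CPM for all 70 clustered histone genes summed. *Tk1*, thymidine kinase, had 20.1 ± 2.41 and 25.1 ± 2.60 CPM, a log2 fold change of 0.32 (SE 0.11, unadjusted p = 0.0116, adjusted p = 0.983, edgeR) with 8 libraries and 0.40 (unadjusted p = 0.00623) with 6, where *Prim1* of the primase had 0.24 (unadjusted p = 0.0137). No other S-phase gene had an unadjusted p under 0.05 in either set, which 4.62% and 9.46% of all genes had. *Mcm6* of the replicative helicase, the most abundant in counts, had 264 ± 9.82 and 264 ± 4.87 CPM.

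Markers of cells in or near the ovary were measured in the same libraries. Granulosa markers summed to 5959 to 7719 CPM in the libraries labelled WT and 7006 to 7892 in those labelled GOAT KO, with 0 of 11 called with 8 libraries (1.67% of all genes) and 2 higher with 6 (2.39% of all genes), *Fshr* (log2 fold change 0.68) and *Inhbb* (0.57). At an unadjusted p under 0.05 alone (edgeR), 3 of the 11 were counted with 8 libraries (4.62% of all genes) and 8 with the 6 (9.46% of all genes). With the 6, *Fshr*, *Amhr2*, *Inhbb*, *Fst*, *Hsd17b1* and *Kitl* were higher, and *Amh* and *Wt1* lower (log2 fold change -0.21 and -0.33). At this p limit the count was 3 of 8 leukocyte markers in both sets, and with the 6 libraries 2 of 6 theca and steroidogenic and 1 of 5 endothelial markers. Theca and steroidogenic markers summed to 2179 to 3367 and 2692 to 3345 CPM with none of 6 called. Leukocyte markers summed to 110 to 144 and 84.9 to 114 CPM, with 1 of 8 called lower in both sets, *Lyz2* (-0.52 and -0.55), against the same 1.67% and 2.39% of all genes. All 4 tested adipose markers, *Adipoq*, *Plin1*, *Cidec* and *Fabp4*, were called higher with 8 libraries, where GOAT KO 1139 had 451 CPM in sum against 13.4 to 30.0 elsewhere, and 1 with the 6, *Plin1*. Of the blood, endothelium, oviduct and striated muscle markers none was called with 8 or 6 libraries, and their sums were 146 to 590 and 160 to 336, 239 to 288 and 232 to 276, 4.52 to 11.5 and 6.60 to 14.6, and 1.36 to 2.52 and 2.15 to 2.39 CPM in the libraries labelled WT and GOAT KO. No defining marker of any list was at 0 in all libraries. The part of these cells in the histone values was not tested.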

How the data were processed

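Ovaries of 4 mice labelled WT and 4 labelled GOAT KO were sequenced as single reads of 50 bases, 1 library per mouse. Per the labels and methods, cleaned reads were aligned by the authors to mm10 (GRCm38) with TopHat2 2.0.14, and transcripts were assembled with StringTie 1.0.4 (not used here). They deposited raw read counts per gene symbol, read counts across each splice junction, and totals of mapped reads. The counting tool and strand setting are not given in the sources used here.

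Counts were fitted over all genes with edgeR 4.0.16 in R 4.3.3 (TMM scaling, filterByExpr with a minimum count of 10, quasi-likelihood test, Benjamini-Hochberg adjustment). The study left out 1 unnamed library per group, so all 8 are the main fit. CPM are given as mean ± SD, SE as the log2 fold change over the square root of F, and intervals use the degrees of freedom of that test. For single values, libraries were permuted exactly (scipy 1.17.1). Positions, exon lengths and shared 50-base stretches come from GENCODE M21, promoters from RefSeq. No pair of libraries of a group was a duplicate (chi-square per gene 3.96 to 25.0). Alternatives were RLE size factors, DESeq2 1.42.0, no filter, and left-out libraries. The script was tested on simulated data.

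Members and lists were chosen with earlier results of these data known. Named were *Mboat4*, all variants past the filter, the leading 2 genes of each clustered class, members with an unadjusted p under 0.05, the 3 most variable, and called or leading genes of the other lists. Zero-count floors and intervals of single libraries cover counting error only, while SD, SE and fitted intervals include the spread between animals.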

Additional observations from a re-analysis of the deposited data

Results flagged for a closer look

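Of 46 groups of 4 values tested by Dixon's rule (95% limit), 5 had 1 library far from the rest, and chance flags about 1 in 20. *H3f3a* was low in GOAT KO 1141 at 19.6 CPM, against 35.8 to 38.3 in the other 3 of its group. *H1f0* was high in GOAT KO 1140 at 228.5 CPM (195.9 to 199.3 in the others). *H3f3aos*, the antisense transcript, was also high in GOAT KO 1140, at 3.66 CPM (2.21 to 2.27). *H2afz* was high in GOAT KO 1146 at 25.1 CPM (21.2 to 21.7). *H2afj* was high in WT 1120 at 26.2 CPM (19.4 to 20.5). *H3f3a* in WT 1118, at 67.3 CPM, did not pass this limit.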

How the results depend on the processing

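No histone gene was called with RLE size factors or DESeq2. Without a filter 2 of 75 were, *H3f3a* and *Hist1h4h* (29 reads in all), with the 6 libraries 1, and leaving out 1 library gave 0 to 1. The log2 fold change of *H3f3a* was -0.51 (unadjusted p = 0.0166, edgeR) without a filter, -0.63 with the 6 and -0.61 to -0.27 with 1 library left out, the least without WT 1118. *H1foo* ranged from -0.065 to 0.048, the difference in *H3f3a* junction reads from 0 to 0.118 for each 1000000 junction reads and that in the macroH2A1.1 exon share from -0.26 to 3.804 percentage points (negative without GOAT KO 1141). The exon share difference was 0.788 over all 4 junctions of both exons, chosen after seeing the data. With the 6 libraries *H2afx* turned to 0.054 and *H2afz* to 0.12. Leaving out 1 library turned the sign of *H1f0* (-0.082 to 0.013), *H2afj* (-0.16 to 0.0077), *H2afx* (-0.086 to 0.062), *H2afy3* (-0.033 to 0.20), *H2afz* (-0.14 to 0.11), *H3f3aos* (-0.27 to 0.11), *Hist1h1c* (-0.024 to 0.16), *Hist1h2bc* (-0.23 to 0.0093), *Hist1h4i* (-0.061 to 0.12) and *Hist3h2a* (-0.12 to 0.036), with none of them called. *H1fx* had an unadjusted p under 0.05 with the 6 (0.28) and without WT 1120 (0.29), and was at 0.092 without WT 1118. The causes were not tested. The log2 ratio of summed clustered CPM ranged from -0.055 to 0.029 with 1 library left out, above 0 without GOAT KO 1139, GOAT KO 1141, GOAT KO 1146 or WT 1118, a move of less than the SD of replicates. In 57 further recomputations of the main results and 186 of single genes the direction and the side of the threshold were kept. No paired analysis was possible because the animal numbers are not shared between the groups. With 72 members under the filter, most clustered genes have too few reads to show a difference.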
